A study of Mus musculus with 4 samples.

Results

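Serpins were examined as a gene family: every gene whose symbol begins with Serpin was taken after the Ensembl identifiers of the count tables had been matched to symbols of build GRCm38. This gave 68 of the 55421 identifiers counted. The libraries were made from total RNA that the labels assign to macrophages of pancreatic islets from wild-type C57BL/6 mice, an inbred strain, fed normal chow (NCD, 2 libraries) or a high-fat diet (HFD, 2 libraries). The labels give no age, sex or length of feeding, and leave unsaid whether animals differed between libraries. The p-values therefore cover only library-to-library spread, which may be of technical origin. Totals ranged from 56740720 to 64490097 counts per library. Endocrine transcripts far outnumbered those of macrophage markers. A list of 10 macrophage markers, none at 0, summed to 885 to 934 CPM (counts scaled to 1000000 per library) in the libraries. For 11 hormone and granule genes of endocrine cells the sums were 33380 to 36740 CPM. Such sums do not give shares of cells, and whether macrophages were separated is not stated. The material is therefore described here only as islet RNA.

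Serpins are proteins of one shared fold, most of which trap a serine or cysteine protease. The protease cuts an exposed loop of the serpin, the serpin snaps into a more stable shape, and the protease is left bound and distorted. Letters name the clades: clade A holds secreted relatives of α1-antitrypsin, clade B holds proteins that mostly stay inside the cell, clade E holds inhibitors of plasminogen activators, and the small clades C to I hold inhibitors of clotting and complement proteases and some members that inhibit nothing, such as the collagen chaperone encoded by Serpinh1. Mouse clades A and B are larger than the human ones because single ancestral genes were duplicated into runs of neighbours.

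Serpine2 and Serpinb2, which encode inhibitors of plasminogen activators, rose in HFD, as did the granzyme inhibitor gene Serpinb9, the C1 inhibitor gene Serping1 and the collagen chaperone gene Serpinh1, while Serpina10 and Serpini1 fell. Of the 68 genes, 19 had no count in any library, 15 had counts too low for the test, and 34 were tested. Among those 34, 13 were higher in HFD, 2 were lower and 19 did not pass edgeR's quasi-likelihood test at a Benjamini-Hochberg adjusted p under 0.05 over all 21563 genes tested. Of all genes tested, 17.9% were higher and 14.5% lower by this rule. A rise of at least 2-fold was called for 11 serpin genes, and for 10% of all genes tested. The median log2 change was 1.00 over the 34 serpin genes and 0.00 over all genes tested, but genes with few counts entered the test only where a diet had enough of them, so these figures describe the genes that passed and not the family. The diets did not overlap in any of the 15 called serpin genes, nor in 67.7% of all genes tested.

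**Figure D1:**
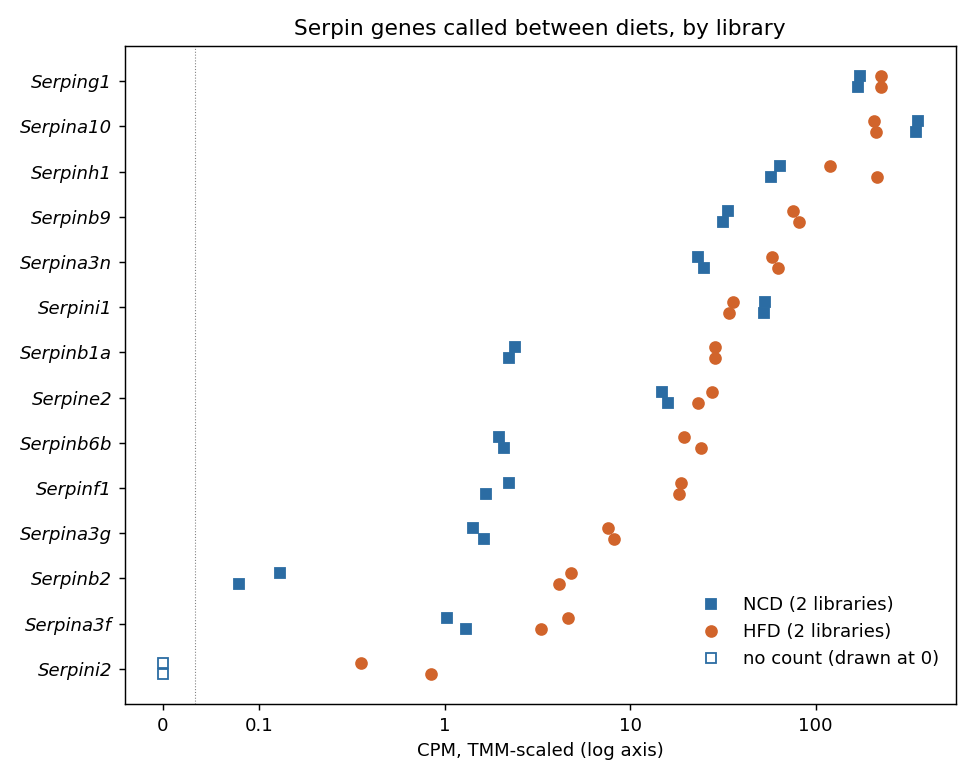
Level of 14 of the 15 serpin genes called between diets in each library, as CPM after TMM scaling on a log axis; squares are the NCD libraries, circles the HFD libraries, and open squares mark libraries without a count. Serpina10 and Serpini1 lie lower in HFD, the other 12 lie higher, and the libraries of the diets do not overlap in any of them.

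Summed over the family, serpins took 1056 and 1092 CPM in NCD, against 1494 and 1401 CPM in HFD. Clade A was the only large clade whose sum was lower in HFD, at 458 and 467 CPM in NCD, against 366 and 364 CPM in HFD. Clade B went from 133 and 139 CPM to 252 and 240.4 CPM. With 2 libraries per diet a permutation test of such sums cannot fall under 0.05, so they are given as values without a test. Serpina10 alone held 33.1% and 32.6% of all serpin counts in NCD, against 14.1% and 14.7% in HFD.

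Since long transcripts collect more counts, levels of different serpins were compared per kilobase of annotated exon. On this scale of CPM per kilobase, the leading members named here were in NCD Serpina10 at 100.9, Serping1 at 73.5, Serpina7 at 26.35, Serpinh1 at 24.9 and Serpinb6a at 17.6. In HFD they were Serping1 at 96.8, Serpinh1 at 68.5, Serpina10 at 59.7, Serpina3n at 29.2 and Serpina7 at 26.6. Serpina10 thus stood above Serping1 in both NCD libraries and below it in both HFD libraries. The order of Serpinh1 and Serpina10 in HFD rested on replicate 1, with 87.7 against 60.2 CPM per kilobase, and was the opposite in replicate 2, with 49.3 against 59.15 CPM per kilobase.

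Serpine2 (ENSMUSG00000026249, chr1:79794197-79861180, minus strand) encodes protease nexin-1, which inhibits thrombin and plasminogen activators at cell surfaces. Its level was 15.9 and 14.9 CPM in NCD, against 23.3 and 27.65 CPM in HFD (log2 change 0.72 ± 0.12, edgeR adjusted p = 0.00819). Serpine3, of the same clade, had 1 count in 1 library. Serpinb2 (ENSMUSG00000062345, chr1:107511423-107535478, plus strand), the clade B gene for PAI-2, had 5 and 8 counts in NCD, against 257 and 273 counts in HFD. That is 0.07755 and 0.129 CPM against 4.15 and 4.82 CPM, the largest fitted log2 change of a serpin with counts in both diets, at 5.42 ± 0.366 (edgeR adjusted p = 0.00042). The NCD libraries lay at the edge of detection, so the size of this ratio is loosely known. Serpinb2 shares 291 exon bases with its neighbour Serpinb10, which had no count in any library.

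Of 9 endothelial markers 5 rose, 2 fell and 2 did not pass, with sums of 1843 and 1882 CPM in NCD, against 2186 and 2181 CPM in HFD, none at 0, and their part in these rises was not tested. In RNA of mixed cells, a change in the number of cells of a type and a change in RNA per cell cannot be told apart.

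Most genes for the proteases and receptors that these inhibitors meet rose. Of 12 genes of the plasminogen system and of clotting, 10 rose, 1 fell and 1, the receptor gene Plgrkt, did not pass. Of the 10, 6 rose at least 2-fold, and the clotting genes F3, Thbd and F2r were among the 10. For this list and those below, the shares over all genes tested are 17.9% higher and 14.5% lower, and 10% higher by at least 2-fold. Plat, the tissue plasminogen activator, went from 45.7 ± 2.79 CPM (SD, n = 2) to 125.7 ± 0.660 CPM (log2 change 1.46), and Plaur, the urokinase receptor, from 44.9 ± 0.146 to 105.3 ± 5.32 CPM (log2 change 1.23). Plau, urokinase itself, rose from 85.7 ± 3.55 to 113.7 ± 0.490 CPM (log2 change 0.41). Anxa2, a cell-surface docking protein for plasminogen, rose from 56.1 ± 4.82 to 226 ± 3.58 CPM. The zymogen gene Plg was scarce and fell from 0.804 ± 0.0909 to 0.116 ± 0.0643 CPM (edgeR adjusted p = 0.0255), and did not pass when replicate number was a block (edgeR adjusted p = 0.0513) or when NCD replicate 1, NCD replicate 2 or HFD replicate 2 was left out (edgeR adjusted p = 0.107, 0.0717 and 0.0987).

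**Figure D2:**
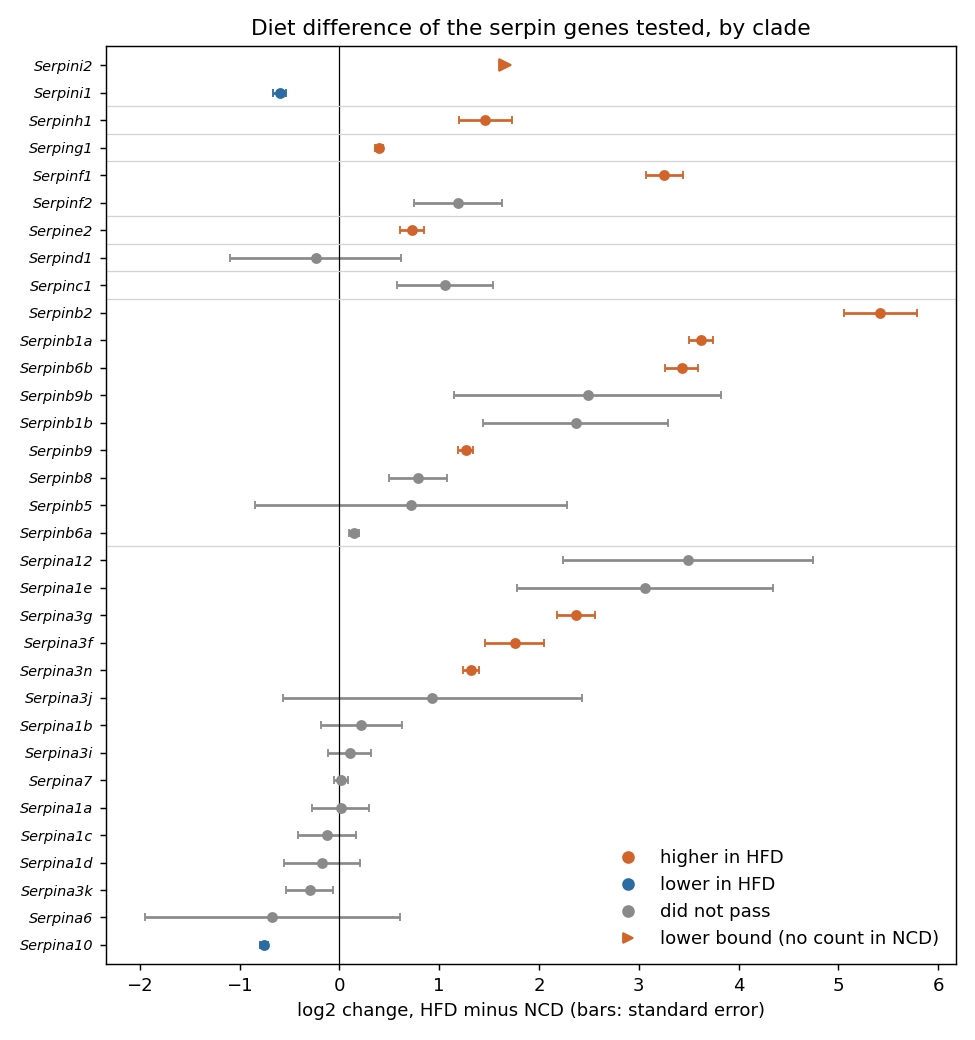
Log2 change (HFD minus NCD) of 33 of the 34 serpin genes tested, grouped by clade with clade A at the bottom and clade I at the top; bars are standard errors, and the triangle for Serpini2, which had no count in NCD, marks a lower bound. The widest bars belong to genes with few counts, such as Serpina12 and Serpinb5, which did not pass.

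Clade B, the intracellular inhibitors, counted 28 genes, of which 14 had no count in any library and 5 too few for the test. Of the 9 tested, 4 rose, 0 fell and 5 did not pass, beside 17.9% higher and 14.5% lower over all genes tested. Serpinb1a (ENSMUSG00000044734, chr13:32842092-32851185, minus strand) encodes an inhibitor of neutrophil elastase and related proteases. It went from 2.23 and 2.40 CPM in NCD to 28.5 CPM in each HFD library (log2 change 3.62 ± 0.119, edgeR adjusted p = 6.14e-05). Serpinb6b (ENSMUSG00000042842, chr13:32965209-32979067, plus strand) stood at 2.08 and 1.96 CPM in NCD, against 24.0 and 19.6 CPM in HFD (log2 change 3.43 ± 0.164, edgeR adjusted p = 0.00016). Serpinb9 (ENSMUSG00000045827, chr13:33003250-33017957, plus strand), which protects cytotoxic and antigen-presenting cells from granzyme B, stood at 31.5 and 33.7 CPM in NCD, against 81.7 and 75.1 CPM in HFD. Its log2 change was 1.27 ± 0.0767 (edgeR adjusted p = 0.000306).

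The most counted clade B gene moved least. Serpinb6a, an inhibitor of cathepsin G and other leukocyte proteases found in many tissues, stood at 93.9 and 96.6 CPM in NCD, against 104 and 106.6 CPM in HFD, a log2 difference of 0.15 ± 0.0527 that did not pass (edgeR adjusted p = 0.093), though the DESeq2 Wald test (DESeq2 adjusted p = 0.00787) and edgeR on genes averaging 5 CPM or more (edgeR adjusted p = 0.0291) called it. Its exons overlap those of Nqo2 and Ripk1 on the opposite strand, and no source used here says how counting handled strand, so its level is uncertain. Within clade B, Serpinb6a held 70.4% and 69.5% of the counts in NCD, against 41.3% and 44.2% in HFD, while Serpinb1a went from 1.67% and 1.72% to 11.3% and 11.8%. Serpinb8, an inhibitor of the proprotein convertase furin, stood at 3.02 and 3.56 CPM in NCD, against 7.08 and 4.28 CPM in HFD, with no overlap but a wide gap between the HFD libraries (edgeR adjusted p = 0.0947). The DESeq2 Wald test called it (DESeq2 adjusted p = 0.0225), as did edgeR with HFD replicate 2 left out (edgeR adjusted p = 0.0338). Serpinb1b, Serpinb9b and Serpinb5 stayed below 2 CPM in every library and did not pass (edgeR adjusted p = 0.111, 0.223 and 0.774). Serpinb1b was called by DESeq2 (DESeq2 adjusted p = 0.0227), and with NCD replicate 2 left out Serpinb1b and Serpinb9b passed (edgeR adjusted p = 0.0425 and 0.0196).

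Leukocyte proteases, the partners of these inhibitors, were scarce. Of 14 granzyme, neutrophil and mast cell genes, all for proteases except Prf1, for perforin, 6 were tested. Of these 4 rose, Prf1 among them, beside 17.9% of all genes tested. Gzmk, Tpsb2 and Prf1 had 0 to 4 counts in the NCD libraries and entered the test only through HFD. The 4 rises therefore describe the genes that passed the filter and not the list. This count was 2 with HFD replicate 2 left out, 3 with any other single library left out, and 0 where only genes averaging 5 CPM or more were tested. Gzmb, the granzyme that Serpinb9 inhibits, rose from 0.292 ± 0.0260 to 1.67 ± 0.240 CPM (log2 change 2.51, edgeR adjusted p = 0.00611). Gzmk, another granzyme of lymphocytes, was absent from the NCD counts and reached 1.40 ± 0.244 CPM in HFD, at least 7.38-fold above a floor of 12 counts per library. Elane and Ctsg, the neutrophil elastase and cathepsin G genes, had no count in any library. Markers of T and NK cells moved with the clade B inhibitors, as 6 of 7 tested of a list of 8 rose and the list summed to 8.54 and 8.85 CPM in NCD, against 51.05 and 44.6 CPM in HFD. Of 7 neutrophil markers 2 were tested and 1 rose, the collagenase gene Mmp8, named after its values were seen, from 4.015 ± 0.354 to 7.99 ± 1.11 CPM (edgeR adjusted p = 0.0117). S100a8, Ly6g and Retnlg had no count in any library, and the sums of the list were 12.1 to 14.7 CPM in NCD and 15.4 to 16.2 CPM in HFD. All 8 B and plasma cell markers rose as well, with sums of 571 CPM in both NCD libraries and 3745 and 3789 CPM in HFD and none at 0. Of the 10 macrophage markers 4 rose, 4 fell and 2 did not pass. The part of these cells in the rise of clade B was not tested.

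Lysosomal proteases meet clade B serpins when lysosomes leak. Among 9 of their genes, the legumain gene Lgmn and otherwise cathepsins, 4 rose, 2 fell and 3, with Lgmn, did not pass. Over all genes tested, 17.9% rose and 14.5% fell. Ctsc, which activates granzymes and neutrophil proteases, rose from 66.3 ± 2.86 to 274 ± 23.3 CPM and Ctsk, a collagen-degrading cathepsin, from 4.33 ± 0.413 to 11.6 ± 0.268 CPM. Ctsd fell from 1204 ± 8.13 to 867 ± 13.4 CPM. Ctss, the cathepsin of antigen-presenting cells, fell from 272 ± 8.40 to 237 ± 3.69 CPM (edgeR adjusted p = 0.0219), but did not pass with NCD replicate 1, HFD replicate 1 or HFD replicate 2 left out (edgeR adjusted p = 0.092, 0.11 and 0.063).

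In clade A, 3 neighbours of the Serpina3 run rose and the most counted member fell. Serpina10 (ENSMUSG00000061947, chr12:103614786-103631444, minus strand) encodes the protein Z-dependent inhibitor of clotting factor X. It stood at 349.9 and 356 CPM in NCD, against 211 and 207 CPM in HFD, well apart in both diets (log2 change -0.76 ± 0.0404, edgeR adjusted p = 0.000214). Serpina7, for the thyroxine-binding globulin of plasma, a carrier that inhibits no protease, was the next most counted, at 62.1 and 66.9 CPM in NCD, against 64.9 and 65.5 CPM in HFD. Its diets overlapped, with a log2 difference of 0.02 ± 0.0655 (edgeR adjusted p = 0.886). The fall of the clade A sum was thus carried by Serpina10, whose share of clade A counts went from 76.5% and 76.2% to 57.6% and 56.7%.

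Serpina3n (ENSMUSG00000021091, chr12:104406729-104414329, plus strand), an acute-phase gene whose product inhibits granzyme B and leukocyte elastase, rose from 25.0 and 23.3 CPM to 62.4 and 58.3 CPM (log2 change 1.32 ± 0.0786, edgeR adjusted p = 0.000292). Serpina3g (ENSMUSG00000041481, chr12:104236245-104241939, plus strand), an inhibitor of lysosomal cathepsins in the cytosol of activated lymphocytes and macrophages, rose from 1.63 and 1.42 CPM to 8.16 and 7.56 CPM (log2 change 2.37 ± 0.191, edgeR adjusted p = 0.000716). Serpina3f (ENSMUSG00000066363, chr12:104214544-104221129, plus strand), its close neighbour, rose from 1.30 and 1.03 CPM to 3.30 and 4.59 CPM (log2 change 1.75 ± 0.294, edgeR adjusted p = 0.00837). Not every member of the run moved. Serpina3i, which lies between Serpina3g and Serpina3n, stood at 6.82 and 5.70 CPM in NCD, against 5.70 and 7.75 CPM in HFD, overlapping in range, and Serpina3k at 3.58 and 4.01 CPM against 2.65 and 3.53 CPM (edgeR adjusted p = 0.761 and 0.401). Serpina3j did not pass either (edgeR adjusted p = 0.692), with at most 15 counts in a library.

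The starts of 4 of these neighbours are shown because they are of similar sequence while their transcripts differed in response. The windows run from 250 bases before to 50 bases after the gene start in RefSeq's annotation of GRCm38.p6, all on the plus strand of chromosome 12, at chr12:104214294-104214593 for Serpina3f, chr12:104235897-104236196 for Serpina3g, chr12:104262872-104263171 for Serpina3i and chr12:104406458-104406757 for Serpina3n. Capitals mark the matches to 6 motifs searched on both strands, which were chosen with these sequences in view.
Serpina3f: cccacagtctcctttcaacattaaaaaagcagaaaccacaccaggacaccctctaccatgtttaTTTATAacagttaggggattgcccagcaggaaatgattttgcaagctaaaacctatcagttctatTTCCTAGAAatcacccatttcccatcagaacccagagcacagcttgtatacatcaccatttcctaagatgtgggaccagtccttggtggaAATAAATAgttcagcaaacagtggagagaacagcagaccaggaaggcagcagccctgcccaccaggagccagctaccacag
Serpina3g: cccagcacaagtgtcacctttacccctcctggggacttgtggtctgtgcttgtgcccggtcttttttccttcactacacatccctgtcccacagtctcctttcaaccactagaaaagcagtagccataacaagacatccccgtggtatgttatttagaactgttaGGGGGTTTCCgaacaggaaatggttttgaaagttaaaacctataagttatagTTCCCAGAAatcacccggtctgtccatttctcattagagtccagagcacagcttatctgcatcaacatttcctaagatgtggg
Serpina3i: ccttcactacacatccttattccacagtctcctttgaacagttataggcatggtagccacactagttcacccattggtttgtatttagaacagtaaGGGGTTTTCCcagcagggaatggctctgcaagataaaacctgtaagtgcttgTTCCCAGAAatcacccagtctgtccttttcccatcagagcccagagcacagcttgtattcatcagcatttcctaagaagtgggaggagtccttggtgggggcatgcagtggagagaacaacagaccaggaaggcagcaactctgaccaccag
Serpina3n: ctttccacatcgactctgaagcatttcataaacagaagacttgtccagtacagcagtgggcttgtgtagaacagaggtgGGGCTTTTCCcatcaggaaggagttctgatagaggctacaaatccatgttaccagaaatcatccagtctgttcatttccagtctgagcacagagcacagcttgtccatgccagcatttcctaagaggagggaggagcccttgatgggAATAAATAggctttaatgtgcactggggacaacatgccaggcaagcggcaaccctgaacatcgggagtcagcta
In the best local alignment Serpina3g and Serpina3i were identical at 80.5% of 236 columns, and Serpina3i and Serpina3n at 72.4% of 228 columns. The motif TTCNNNGAA, the form bound by STAT factors, occurred in Serpina3f as TTCCTAGAA and in Serpina3g and Serpina3i as TTCCCAGAA, but not in Serpina3n. It occurs in 8.3% of all 32851 promoters of the table. The motif of GGG, any 2 bases and TTTCC, a form of the NF-κB site found in 1.63% of all promoters, occurred in Serpina3g, Serpina3i and Serpina3n. Serpina3f and Serpina3n carried AATAAATA, present in 2.56% of promoters, shortly before the gene start, and Serpina3f also held TATAAA on the opposite strand, as TTTATA. The motif TATAAA occurs in 13.6% of promoters. Neither of these motifs occurred in the windows of Serpina3g, which rose, and Serpina3i, which did not pass. The window of Serpina3g ends before the start that GENCODE gives for the gene. It also stops short of the stretch that matches the place of AATAAATA in Serpina3f. The missing AATAAATA can thus be a matter of the window. Whether these motifs separate the genes that rose from the one that did not pass cannot be told. Remaining motifs were TGANTCA of AP-1, in 7.81% of promoters, and GAAA, any 2 bases and GAAA, of interferon-regulated genes, in 3.44%, neither of which occurred in these 4 windows. No match overlapped another. A match describes letters only, and no match says no more than that these letters are missing here.

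For comparison, the windows of the clade B genes Serpinb9 (chr13:33004291-33004590) and Serpinb2 (chr1:107511173-107511472), also on the plus strand, are shown because these genes rose and hold other motifs of the set. RefSeq's start of Serpinb9 lies inside the gene as GENCODE bounds it.
Serpinb9: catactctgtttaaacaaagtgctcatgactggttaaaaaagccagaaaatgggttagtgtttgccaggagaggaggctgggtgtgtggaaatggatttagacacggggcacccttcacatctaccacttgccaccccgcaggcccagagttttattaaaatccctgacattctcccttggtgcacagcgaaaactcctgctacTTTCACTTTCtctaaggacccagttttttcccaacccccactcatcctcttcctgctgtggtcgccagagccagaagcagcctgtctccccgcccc
Serpinb2: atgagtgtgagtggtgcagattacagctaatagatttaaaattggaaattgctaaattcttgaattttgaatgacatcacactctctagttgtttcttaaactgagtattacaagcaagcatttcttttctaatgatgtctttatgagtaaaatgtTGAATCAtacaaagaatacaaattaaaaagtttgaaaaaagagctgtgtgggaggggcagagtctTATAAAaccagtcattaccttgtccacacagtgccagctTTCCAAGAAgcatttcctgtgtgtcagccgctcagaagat
Serpinb9 held TTTCACTTTC, the interferon-type motif read on the opposite strand, 46 bases before the gene start. Serpinb2 held TATAAA 29 bases before the start, TGAATCA 94 bases before it and TTCCAAGAA just after it. Of the 13 serpin genes that rose, 10 had a promoter in the table, of which 3 held TTCNNNGAA, 2 the NF-κB form, 1 TGANTCA and 1 the interferon-type motif, 3 TATAAA and 2 AATAAATA. Serpinb1a and Serping1 were not among them.

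**Figure D3:**
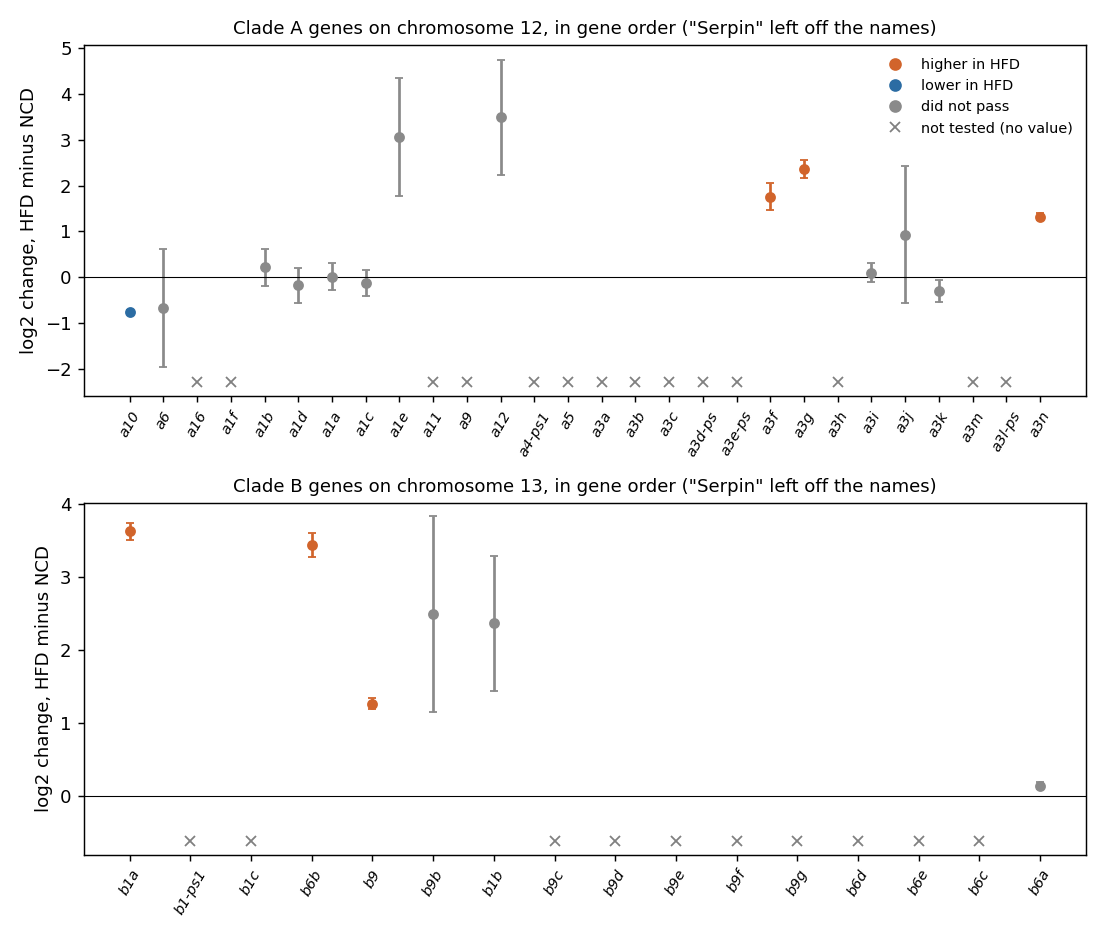
Log2 change (HFD minus NCD, bars are standard errors) of the clade A genes on chromosome 12 and the clade B genes on chromosome 13, placed in gene order; crosses at the bottom mark genes without a test. In the clade A run the genes that rose, Serpina3f, Serpina3g and Serpina3n, stand among neighbours that did not pass, and in the clade B run Serpinb1a, Serpinb6b and Serpinb9 lie near the same end.

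By position, clade A held 28 genes in 799.5 kb of chromosome 12 and Serpina7 on chromosome X. Of the 14 tested in the run on chromosome 12, 3 rose, 1 fell and 10 did not pass. Clade B held 16 genes in 1161 kb of chromosome 13, of which 6 were tested and 3 rose, and 12 genes in 749 kb of chromosome 1, of which 3 were tested and 1, Serpinb2, rose. Close relatives can share reads. Of the 50-base stretches of its transcripts, Serpina1c shared 74.2%, Serpina1a 57.6%, Serpina1d 50.9%, Serpina1e 34.6% and Serpina1b 29.5% with other genes, so the 5 tested α1-antitrypsin genes cannot be read singly. They stood at 0 to 3.80 CPM and none passed (edgeR adjusted p = 0.131 to 0.98). Serpina1e was called by DESeq2 (DESeq2 adjusted p = 0.0386) and by edgeR with NCD replicate 2 left out (edgeR adjusted p = 0.0439). Among the genes that rose, Serpina3g shared 15.5%, Serpina3f 10.6%, Serpinb2 10.4% and Serpina3n 6.9% of such stretches, Serpinb1a and Serpinb6b 2.81% and 2.92%, and Serpinf1, Serping1, Serpinh1 and Serpini2 none.

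Other clade A genes were near the limit of counting. Serpina12, for vaspin, an adipose serpin, had 4 and 0 counts in NCD, against 20 and 24 in HFD, and did not pass (edgeR adjusted p = 0.0888; DESeq2 adjusted p = 0.0171; limma-voom adjusted p = 0.0478). Serpina6, for the corticosteroid-binding globulin, had 32 and 5 counts in NCD, against 20 and 2 in HFD (edgeR adjusted p = 0.742). Markers of hepatocytes, the main source of clade A serpins in plasma, gave no clear direction, as 2 of 6 rose and 4 did not pass, with sums of 223 and 236 CPM in NCD, against 376 and 386.5 CPM in HFD. The rise of the sums lay mostly in Ttr, from a mean of 161 CPM in NCD to 312 CPM in HFD. Fgb, the other that rose, went from 5.22 to 10.2 CPM. Alb stood at 58.4 CPM in NCD and 54.25 CPM in HFD and did not pass. None of these markers was at 0 throughout.

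The complement inhibitor was abundant and rose a little. Serping1 (ENSMUSG00000023224, chr2:84765387-84775444, minus strand) encodes the C1 inhibitor, which blocks the first proteases of the classical complement and the contact pathways. It stood at 169 and 173 CPM in NCD and 225 CPM in each HFD library (log2 change 0.40 ± 0.0437, edgeR adjusted p = 0.002). Among its target proteases, C1s1 and C1ra rose further. C1s1 went from 8.26 ± 0.370 to 77.3 ± 4.91 CPM (log2 change 3.23, edgeR adjusted p = 4.27e-05). C1ra went from 5.42 ± 0.799 to 29.8 ± 0.172 CPM (log2 change 2.46, edgeR adjusted p = 0.00025). Of the 8 complement and contact protease genes tested, these 2 rose and 6 did not pass, while 17.9% of all genes tested rose. Summed CPM of all 9 genes of that list were 18.5 and 19.7 in NCD, against 120.1 and 108 in HFD.

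Serpinf1 and Serpinh1, neither of which inhibits a protease, rose, as did most genes of a collagen list. Serpinf1 (ENSMUSG00000000753, chr11:75409769-75422701, minus strand) encodes PEDF, a secreted antiangiogenic factor made by fibroblasts and adipocytes. It went from 1.675 and 2.22 CPM to 18.35 and 18.9 CPM (log2 change 3.26 ± 0.182, edgeR adjusted p = 0.000246). Serpinh1 (ENSMUSG00000070436, chr7:99345376-99353239, minus strand) encodes HSP47, the collagen chaperone of the endoplasmic reticulum. It stood at 57.6 and 64.1 CPM in NCD, at 214 CPM in HFD replicate 1 and at 120.4 CPM in HFD replicate 2. Both HFD libraries lay above NCD, but they differed from each other by a larger factor than for any other serpin above 10 CPM. The log2 change was 1.46 ± 0.265 (edgeR adjusted p = 0.011), 0.99 without HFD replicate 1 (edgeR adjusted p = 0.00272) and 1.81 without HFD replicate 2 (edgeR adjusted p = 0.000703).

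Of 20 collagen and collagen-processing genes, the clients and partners of Serpinh1, 19 rose and 1, P4hb, did not pass. A rise of at least 2-fold was called for 10 of them. The heavily counted Col4a1 and Col4a2 rose less, 1.74-fold and 1.46-fold. Col1a1 went from 13.01 ± 0.593 to 176 ± 5.30 CPM, Col3a1 from 22.3 ± 0.126 to 532 ± 7.28 CPM and Col6a2 from 16.1 ± 0.880 to 243 ± 8.63 CPM, each with HFD libraries close together. The wide gap of Serpinh1 between the HFD libraries was therefore not shared by these collagens. All 10 fibroblast and stellate cell markers rose, with sums of 122 and 124 CPM in NCD, against 1268 and 1295 CPM in HFD and none at 0, and their part in the rise of Serpinf1 and Serpinh1 was not tested. Col1a1 and Col3a1 stand in both of these lists.

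The clade I genes moved in opposite directions. Serpini1 (ENSMUSG00000027834, chr3:75557547-75643495, plus strand) encodes neuroserpin, an inhibitor of tissue plasminogen activator made by neurons and endocrine cells and stored in secretory granules. It stood at 52.5 and 53.3 CPM in NCD, against 34.0 and 35.9 CPM in HFD (log2 change -0.60 ± 0.0685, edgeR adjusted p = 0.00229). Of 11 endocrine markers, 8 fell, 1 rose and 2 did not pass. Their sums were 35480 and 36740 CPM in NCD, against 33380 and 34830 CPM in HFD. The 1 that rose was Gcg, from a mean of 9256 CPM in NCD to 13140 CPM in HFD. Ins1 and Slc2a2 did not pass. None of the endocrine markers was at 0, and their part in the falls of Serpini1 and Serpina10 was not tested.

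Serpini2 (ENSMUSG00000034139, chr3:75242370-75270078, minus strand) encodes pancpin, a serpin of pancreatic acinar cells. It had no count in either NCD library and 52 and 20 counts in HFD, or 0.840 and 0.353 CPM. The mean HFD level was 3.15-fold above the floor of 12 counts per library, which is a lower bound without a test. The gene entered the test only through HFD and was called against its NCD counts of 0 (edgeR adjusted p = 0.0153). This call did not hold with HFD replicate 1 left out. All 10 acinar markers rose, with sums of 360 and 365 CPM in NCD, against 2361 and 2861 CPM in HFD. None of the acinar markers was at 0 in all libraries, and their part in the Serpini2 counts was not tested. Of 12 tested pancreatic serine protease genes 11 rose, among them the trypsinogen genes Prss2, from 47.7 ± 1.38 to 334 ± 5.33 CPM, and Try5, from 25.7 ± 0.933 to 213 ± 1.74 CPM, whose reads can be shared between paralogs.

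The liver-type inhibitors of clotting and fibrinolysis were barely counted. Serpinc1, antithrombin, had 28 and 39 counts in NCD, against 88 and 45 in HFD (edgeR adjusted p = 0.16), and 2942 of its 8546 exon bases lie opposite Zbtb37. Serpind1, heparin cofactor II, had 48 and 10 counts in NCD, against 17 and 28 in HFD (edgeR adjusted p = 0.865). Serpinf2, the α2-antiplasmin that neutralises plasmin, stood at 0.527 and 0.483 CPM in NCD, against 1.44 and 0.866 CPM in HFD, without overlap, and did not pass (edgeR adjusted p = 0.0978; DESeq2 adjusted p = 0.0426).

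Protease inhibitors of other folds were mixed. Of 21 such genes 18 were tested, of which 8 rose, 2 fell and 8 did not pass. The shares over all genes tested were 17.9% higher and 14.5% lower. Slpi, an inhibitor of leukocyte elastase made by epithelia and macrophages, rose from 5.80 ± 0.308 to 48.1 ± 0.399 CPM, and Tfpi2, an inhibitor of plasmin and other matrix-bound proteases, from 8.04 ± 1.06 to 45.45 ± 3.98 CPM. Of 8 markers of ductal epithelium 5 rose, 1 fell and 2 did not pass, with sums of 1311 and 1363 CPM in NCD, against 2441 and 2705 CPM in HFD and none at 0, and their part in these rises was not tested. Spp1 held most of the HFD sum, with a mean of 608 CPM in NCD and 1791 CPM in HFD. Krt7, the 1 that fell, went from 445 to 241 CPM. A2m, α2-macroglobulin, was absent from the NCD counts and reached 7.26 ± 0.603 CPM in HFD, at least 38.3-fold above the floor. Spint2 and Spint1, Kunitz-type inhibitors of epithelial membrane proteases, fell from 257 ± 4.69 to 176 ± 32.3 CPM and from 161 ± 5.05 to 131 ± 12.5 CPM (edgeR adjusted p = 0.0221 and 0.0347). Both calls were lost without NCD replicate 1 (edgeR adjusted p = 0.0709 and 0.125) or NCD replicate 2 (edgeR adjusted p = 0.0513 and 0.064). That of Spint1 was also lost without HFD replicate 1, without a count filter and with a replicate block (edgeR adjusted p = 0.112, 0.0555 and 0.0572).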

How the data were processed

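The authors deposited whole-number counts per Ensembl gene, 1 table per library. HISAT, featureCounts (version 1.5.0) and DESeq (1.8.3) on build GRCm38 are listed, without roles or settings, by the submitters' processing notes. The treatment of strand and of reads matching several genes is not given in the sources here. Symbols, coordinates and exon lengths came from GENCODE M21 of GRCm38, which named 55240 of the identifiers.

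Genes passing filterByExpr (minimum count 10) were scaled by TMM and tested for diet over all genes with edgeR 4.0.16 in R 4.3.3 by the quasi-likelihood F test, without a replicate block. The standard error is the absolute log2 change divided by the square root of F. CPM of single genes use TMM-scaled library sizes, and sums use total counts. Low counts at multiples of 4 were 1.54 to 1.66 times as frequent as their neighbours, so for genes without NCD counts the floor was put at 12 counts in each library, for counting error only. The script was tested on simulated data. Promoters are RefSeq's.

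The members, gene lists and tests were chosen with earlier results of these data known. Every tested member is named except 1 called member, which is counted but not reported here, and of the other lists the 2 called genes with the smallest p in each direction besides 8 fixed partners. Members below the filter are named where a library holds at least 10 counts. Samples were grouped by their titles. Alternatives were DESeq2 1.42.0, limma-voom (limma 3.58.1), other filters and scalings, a replicate block and leaving out each library.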

Additional observations from a re-analysis of the deposited data

How the results depend on the processing

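Over 13 alternatives, 10 to 19 serpin genes were higher in HFD and 2 were lower, except that 0 were lower when a change of at least 2-fold was required. The highest count, 19, came from the DESeq2 Wald test, and leaving out single libraries gave 12 to 16. With a replicate block 13 were higher and 2 lower, as without it. Same-numbered libraries of the diets did not deviate together (correlation 0.00211 across genes), so the numbers were taken as names only. Of the 15 calls, that of Serpini2 alone was lost in any alternative that tested the gene, aside from the 2-fold rule, which removed Serpina10, Serpine2, Serping1 and Serpini1. Per kilobase of exon, the log2 ratio of the summed level (HFD over NCD) was 0.512 for all serpins, -0.195 for clade A, 1.187 for clade B and -0.478 for clade I, against 0.431, -0.341, 0.854 and -0.575 in CPM.

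Directions that turned were all of genes that did not pass. Leaving out single libraries, the log2 change ranged from -0.099 to 0.126 for Serpina1a, from -0.387 to 0.656 for Serpina1b, from -0.559 to 0.133 for Serpina1d, from -0.139 to 0.316 for Serpina3i, from -0.051 to 6.459 for Serpina3j, from -2.953 to 1.139 for Serpina6, from -0.039 to 0.064 for Serpina7, from -0.522 to 6.246 for Serpinb5, from -0.958 to 1.244 for Serpind1 and from -0.096 to 0.016 for Agt. Serpind1 stood at 0.05 with limma-voom and 0.031 with a replicate block, and Agt at 0.009 with a mean of at least 5 CPM. The cause was not tested. A diet left with 1 library was taken to have the spread of the other diet. Depth limits the genes under about 1 CPM, whose standard errors reach 1.56 on the log2 scale (Serpinb5).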

Other observations

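Agt, which encodes angiotensinogen, has the serpin fold without a Serpin symbol and so fell outside the family rule. It stood at 24.6 ± 0.210 CPM (SD, n = 2) in NCD and 23.9 ± 1.17 CPM in HFD and did not pass (log2 change -0.04 ± 0.0870, edgeR adjusted p = 0.766).

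Of the 68 serpin genes, 15 had counts but were not tested. Of these, 8 reached at least 10 counts in some library: Serpina3m had 9 and 0 counts in NCD and 9 and 25 in HFD, Serpina3c had 0 and 5 against 21 and 0, Serpina3h had 4 and 0 against 0 and 17, and Serpina9 had 0 and 8 against 7 and 15. Serpina1f had 16 counts in NCD replicate 2 only, Serpinb6e had 13 in NCD replicate 1 and 5 in HFD replicate 2, Serpinb12 had 10 in replicate 1 of each diet, and the pseudogene Serpina3e-ps had 5 to 10 counts in each library. The duplicated clade B genes of the placenta-expressed Serpinb9 run, Serpinb9d, Serpinb9e, Serpinb9f and Serpinb9g, had no count in any library. They share 30.8%, 28.4%, 78.7% and 54.8% of their 50-base stretches with other genes, and how such reads were counted is not given.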
